A study of Mus musculus with 8 samples.

Results

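The enzymes described here make serine and carry its carbon through folate: Phgdh, Psat1, Psph, Shmt1, Shmt2, Mthfd1, Mthfd2, Mthfd1l and Tyms. They were chosen by name from the table of read counts, and all 9 were found among its 34299 genes. The counts come from 8 libraries of whole mouse brain. The fetal libraries, taken at gestation day 15, were 3 from wild-type (WT) mice and 3 from Cav1 knockout (KO) mice, which lack caveolin 1, the main coat protein of caveolae. The other 2 libraries came from Cav1 KO brain at week 70. Week 70 WT libraries, to which the series' design text refers as an earlier study of the authors, were not analysed here. So age was compared only between KO brains, and week 70 KO against day 15 WT differs in both age and genotype. The labels describe the day 15 libraries as biological replicates; they do not say how the week 70 pair relates, and p-values measure only the spread between these libraries.

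Cells make serine from a glycolytic intermediate. Phgdh, phosphoglycerate dehydrogenase, catalyses the first and committed step, the aminotransferase Psat1 the next, and the phosphatase Psph the last. Serine hydroxymethyltransferase then splits serine into glycine and a one-carbon unit on tetrahydrofolate, Shmt1 in the cytosol and Shmt2 in mitochondria. In mitochondria Mthfd2 oxidises that unit and Mthfd1l releases it as formate, and the trifunctional Mthfd1 loads formate back onto folate in the cytosol. The units serve purine synthesis, methionine recycling and Tyms, thymidylate synthase, which methylates dUMP to dTMP for DNA. In adult brain, serine synthesis is known chiefly as an activity of astrocytes, whereas Tyms is known for its use by dividing cells.

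Total counts per library ranged from 14110031 to 20833397, and every WT library was deeper than every KO day 15 library. No batch is recorded in the labels, so a batch cannot be told apart from the genotype. Nor can a batch be told apart from the age, in any comparison with the week 70 libraries. Cav1 held 367, 218 and 329 counts in fetal WT and between 0 and 5 in the 5 KO libraries. Reads on processed pseudogenes made up 3.55% to 3.69% of counts in fetal WT, 6.15% to 6.49% in fetal KO and 0.306% in each week 70 library. All 6 fetal libraries were high in the X-inactivation transcript Xist, with at least 54531 counts, and held at most 4 counts of Y-linked genes. The week 70 libraries differed, with 7969 counts of Xist and 0 Y-linked counts in replicate 1 and 4 and 2219 in replicate 2. By these counts the week 70 pair differed in sex and came from different animals. The age comparison thus sets fetal libraries all high in Xist against a pair of mixed sex. Fibroblast and meningeal markers summed to 295 to 4419 CPM in fetal WT and 57.1 to 126 CPM in fetal KO (CPM is defined in the next paragraph).

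Levels are CPM, a gene's counts scaled to the library's total, after TMM scaling across the 8 libraries; where genes are compared with each other, CPM was divided by the length of the gene's exons in kilobases. Differences are log2 fold changes with their standard error (SE), fitted on counts of the 2 groups compared. A gene was called when its adjusted p in edgeR's quasi-likelihood test was under 0.05. Each fit scaled its own libraries, so a fitted fold can differ from the ratio of the CPM values. Each group enters 2 of the 3 comparisons, which are therefore not independent. In bulk tissue, fewer cells of a type and less RNA per cell cannot be told apart.

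In KO fetal brain the pathway was mostly lower than in WT. Of the 9 enzymes, 6 fell (Phgdh, Psat1, Shmt1, Shmt2, Mthfd1 and Mthfd1l, by 1.71-fold to 2.41-fold), 1 rose (Psph) and 2 were not called (Mthfd2 and Tyms). All 9 passed the filter on low counts in each comparison. The 7 called are to be read against 62.6% of the 19147 genes tested that were called, 30.1% as higher and 32.5% as lower. CPM did not overlap between genotypes for 8 of the 9, and for 68.3% of all genes tested. Their median log2 fold change was -0.85, beside 0.03 over all genes tested. With transcript length and GC content corrected, 6 were called lower and 2 (Psph and Tyms) higher. Of 19050 genes in that fit, 5005 were called lower and 5152 higher. Each of the 6 falls was then smaller, with Phgdh at -0.80, Psat1 at -0.68 and Mthfd1l at -0.94. From KO fetal to KO week 70 brain all 9 were called, where 82.0% of 20000 genes were: Phgdh, Psat1, Psph, Mthfd1 and Mthfd1l rose (37.6% of all genes did) and Shmt1, Shmt2, Mthfd2 and Tyms fell (44.4% did). None of the 9 overlapped between the ages, nor did 87.9% of all genes. Week 70 KO against day 15 WT gave 8 calls, 4 in each direction, where 78.6% of 19465 genes were called, 36.7% as higher and 41.9% as lower; 8 of the 9, and 86.4% of all genes, did not overlap. Regardless of direction, the shares of enzymes called were thus near the background. By direction, 6 of the 9 were called lower and 1 higher between genotypes, against 32.5% and 30.1% of all genes. The enzymes were chosen with earlier results of these data known, so these shares are a description and not a test. The median size of the log2 fold change, regardless of sign, was 0.85 for the enzymes and 0.52 for all genes between genotypes, and 1.42 and 1.40 between ages.

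**Figure D1:**
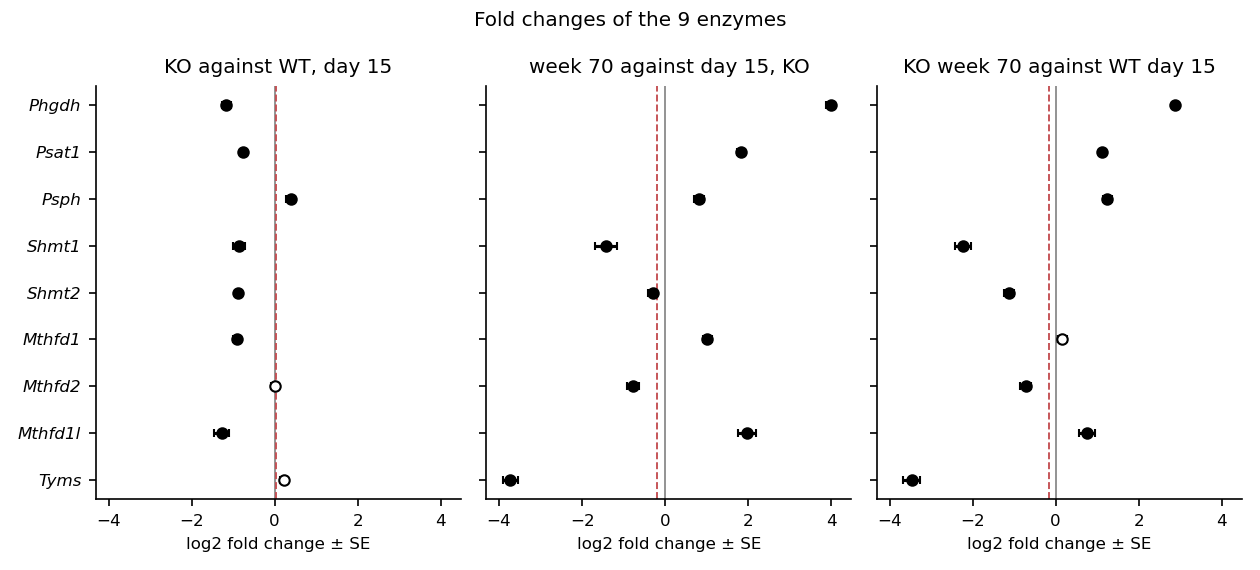
Log2 fold change of each of the 9 enzymes (horizontal axis, bars are the SE) in the 3 comparisons of groups, with filled points for called genes, open points for those not called and a dashed line at the median of all genes tested. In the genotype comparison 6 filled points lie below 0 and Psph above it; between ages Phgdh lies farthest to the right, at 3.99, and Tyms farthest to the left, at -3.73.

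The order of the enzymes by level differed between the groups. In WT day 15 brain, Psat1 led with 26 ± 1.43 CPM per kilobase (SD, n = 3), followed by Shmt2 with 18.1 ± 1.81, Mthfd1 with 9.84 ± 1.21, Phgdh with 8.32 ± 0.205 and Mthfd2 with 5.03 ± 0.231. Tyms (3.51 ± 0.372) and Shmt1 (3.25 ± 0.105) overlapped, and Psph (2.93 ± 0.149) and Mthfd1l (2.31 ± 0.333) came last, 11.3-fold below Psat1 at the end of the order. In KO day 15 brain Psat1 (14.8 ± 1.03) and Shmt2 (9.57 ± 0.268) again led and Mthfd1l (0.929 ± 0.192) was last. Between them, Mthfd1 (5.08 ± 0.263) overlapped with Mthfd2 (4.94 ± 0.345), and Tyms (3.97 ± 0.185) with Psph (3.72 ± 0.191), which overlapped with Phgdh (3.62 ± 0.391). At week 70 no neighbours in the order overlapped: Phgdh led with 61.4 ± 1.06 CPM per kilobase (SD, n = 2), Psat1 followed with 56.5 ± 0.0396, and Mthfd1 with 11.0 ± 1.30 stood far below them. Tyms was last there with 0.320 ± 0.0525, 192-fold below Phgdh. Phgdh is placed in this order by its own row alone. With the counts of its processed pseudogenes added it reached 26.2 ± 1.48 CPM per kilobase in fetal WT, overlapping with Psat1, and 10.8 ± 0.981 in fetal KO, between Psat1 and Shmt2 (SD, n = 3 each).

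**Figure D2:**
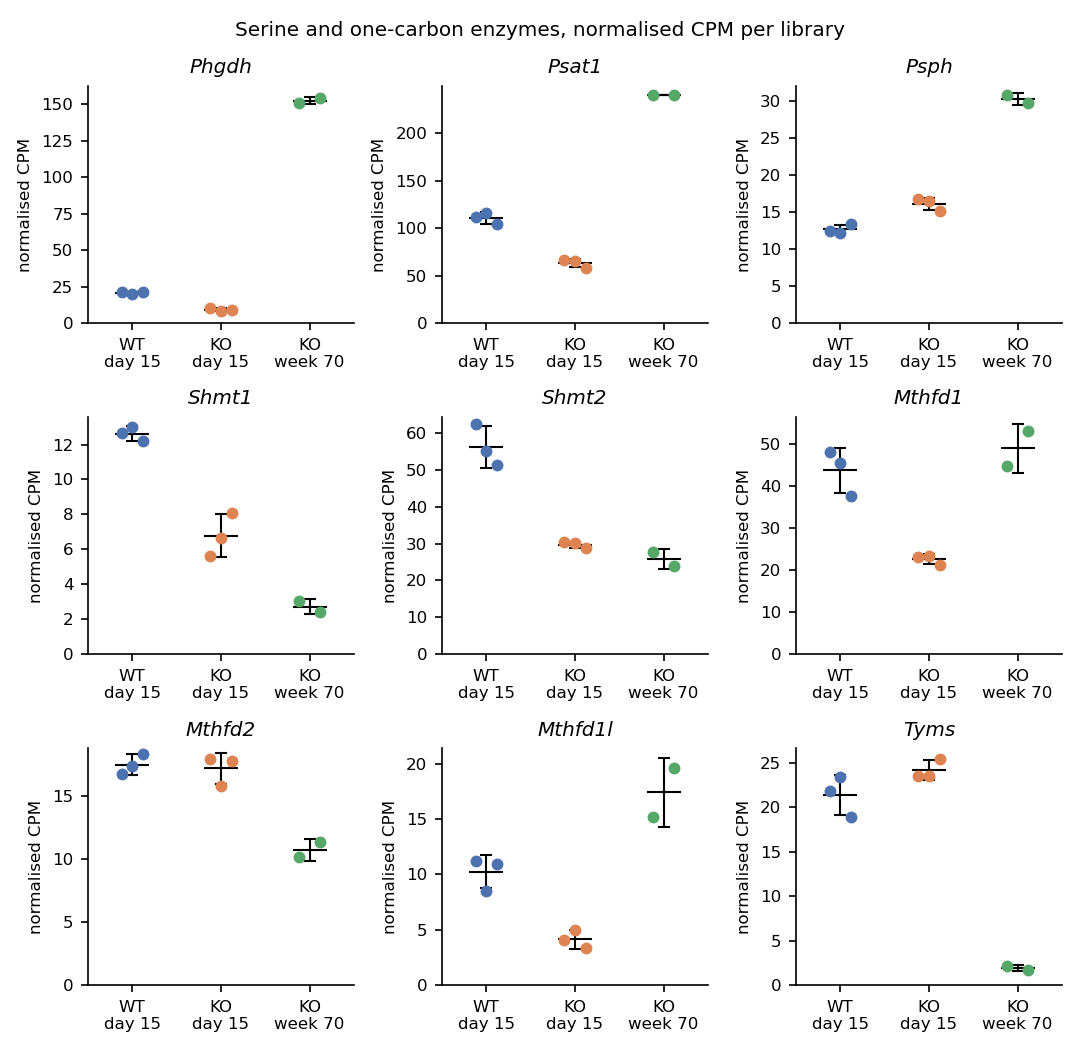
Level of each of the 9 enzymes in CPM (vertical axis, from 0, a separate scale for each gene) in the WT day 15, KO day 15 and KO week 70 libraries; points are libraries, bars are group means and whiskers are the SD. The week 70 bars of Phgdh and Psat1 rise above both fetal groups, and that of Tyms falls to 2.17 and 1.72 CPM.

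Phgdh, the entry enzyme of serine synthesis, has many processed pseudogenes, copies of its spliced RNA set elsewhere in the genome, and the reads of the fetal libraries fell mostly on one of them. Against the GENCODE transcripts, 19 processed pseudogenes aligned to Phgdh at 85% identity or more, of which 10 have a row in the count table. The copy Gm7901 is 98.7% identical to Phgdh over 1597 aligned columns, with 18 substitutions, 2 gap columns and an unbroken identical run of 312 bases. Of 1449 windows of 100 bases without a gap and within the coding sequence of Phgdh, 651 held no difference. A read of that length from such a window cannot be placed by its sequence. The window in which the copies differ most is printed here from GENCODE, within the coding sequence of Phgdh at transcript bases 1505 to 1604 and at bases 1349 to 1448 of Gm7901, with the 6 differing bases in capitals.
Phgdh: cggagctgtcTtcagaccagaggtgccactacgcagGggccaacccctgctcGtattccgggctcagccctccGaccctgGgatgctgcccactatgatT
Gm7901: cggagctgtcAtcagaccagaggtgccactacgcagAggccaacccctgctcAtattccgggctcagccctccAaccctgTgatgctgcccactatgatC
Within coding sequence Phgdh is the exception among the 9 enzymes: 44.6% of its 100-base windows occur unchanged in another gene's transcript, and 0 of those of the other 8. Over the whole transcript such windows made up 37.3% for Phgdh, 21.6% for Psph, 3.95% for Tyms and 3.08% for Shmt1. They were absent from Psat1, Shmt2, Mthfd1, Mthfd2 and Mthfd1l.

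The row of Phgdh held 450, 403 and 417 counts in fetal WT, 165, 145 and 154 in fetal KO, and 2287 and 2241 at week 70. The row of Gm7901 held 969, 815 and 765 counts in fetal WT, 303, 280 and 274 in fetal KO, and 11 and 8 at week 70. Both rows were lower in each KO than in each WT fetal library, but with age they moved in opposite directions. Pseudogenes took 66.4% to 69.6% of the reads on Phgdh and its copies in fetal WT, 65.5% to 68.1% in fetal KO and 0.608% to 1.06% at week 70. The share of all processed pseudogenes was also lowest at week 70, at 0.306% in each library. Between fetal genotypes that share was higher in KO, at 6.15% to 6.49% against 3.55% to 3.69%, while the Phgdh share was not. The part of the copies' reads in the Phgdh counts was tested only by summing the rows.

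By its own row, Phgdh stood at 21, 20.1 and 20.9 CPM in fetal WT, 10, 8.06 and 8.92 in fetal KO, and 151 and 154 at week 70. No groups overlapped. It was lower in KO than in WT fetal brain by a log2 fold change of -1.16 (SE 0.107, adjusted p = 4.78e-06, edgeR) and rose with age by 3.99 (SE 0.103, adjusted p = 2.09e-10, edgeR), or 15.8-fold; with transcript length and GC content corrected the rise was 3.10 (adjusted p = 3.19e-09, edgeR). With the pseudogenes added, the level was 65.1 ± 3.67 CPM in fetal WT, 27.0 ± 2.44 in fetal KO (SD, n = 3 each) and 154 ± 3.15 at week 70 (SD, n = 2). The genotype difference of the sum was -1.23 (SE 0.076, adjusted p = 2.74e-07, edgeR), near that of the row alone. The rise with age came to 2.41 (SE 0.093, adjusted p = 2.89e-09, edgeR). Against WT day 15, week 70 was higher by 2.87 by the row alone (SE 0.066, adjusted p = 6.84e-08, edgeR) and by 1.23 with the copies (SE 0.070, adjusted p = 3.02e-06, edgeR). The direction held either way, while the size of the change with age depended on where the copies' reads were counted. Per kilobase the sum was 26.2 CPM in fetal WT, about the level of Psat1, against 8.32 from the row alone.

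**Figure D3:**
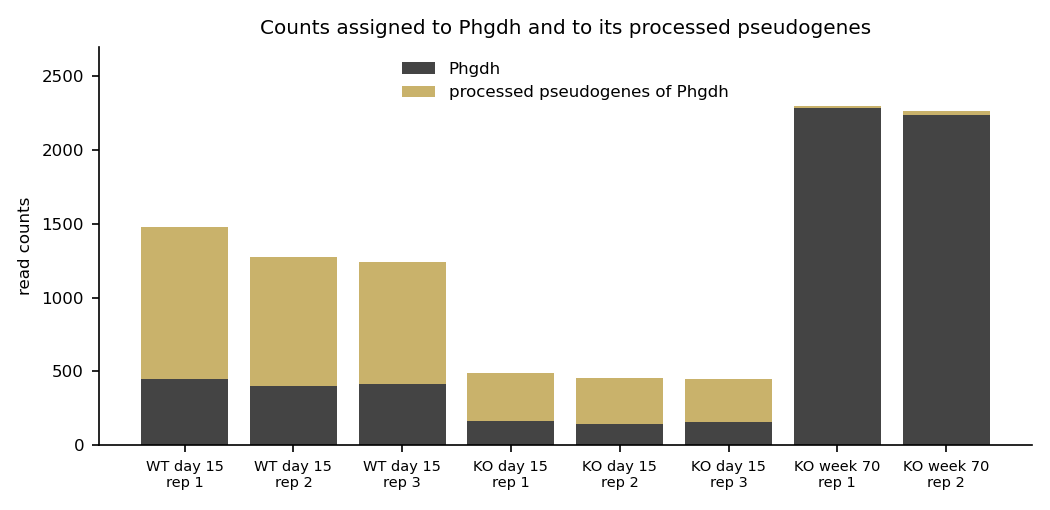
Counts of Phgdh and of its processed pseudogenes in each of the 8 libraries, grouped as WT day 15, KO day 15 and KO week 70. In the fetal libraries the pseudogene rows hold 66.4% to 69.6% (WT) and 65.5% to 68.1% (KO) of the reads, and at week 70 nearly all reads lie on Phgdh.

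Psat1, which converts the product of Phgdh with glutamate as amino donor, was well counted and has no window in common with another gene. It stood at 111, 116 and 104 CPM in fetal WT, 66.4, 64.9 and 58.1 in fetal KO, and 240 in both week 70 libraries. Its log2 fold change was -0.77 between genotypes (SE 0.068, adjusted p = 3.44e-06, edgeR) and 1.83 between ages (SE 0.087, adjusted p = 1.24e-08, edgeR). Week 70 KO also exceeded WT day 15, by 1.11 (SE 0.070, adjusted p = 4.98e-06, edgeR). Its 1 annotated processed pseudogene in the table, Gm12611, held at most 2 counts in any library. Psat1 thus fell in KO fetal brain and was highest at week 70, with at most 0.171% of its reads on the copy.

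Psph, the phosphatase that releases free serine, went the other way between genotypes. It measured 12.5, 12.2 and 13.4 CPM in fetal WT, 16.7, 16.5 and 15.2 in fetal KO, and 30.9 and 29.8 at week 70. The KO fetal libraries lay above the WT ones without overlap, by 0.38 (SE 0.099, adjusted p = 0.00624, edgeR), a call lost when no filter on low counts was applied (0.29, adjusted p = 0.0511, edgeR). The rise with age was 0.81 (SE 0.114, adjusted p = 6.75e-05, edgeR), and 0.29 after correction for transcript length and GC content (adjusted p = 0.0264, edgeR). With the replicate block added to that correction the age call was lost (0.26, adjusted p = 0.126, edgeR). Against WT day 15, week 70 KO was higher by 1.24 (SE 0.113, adjusted p = 3.70e-05, edgeR). Psph shares 452 of its 4329 exon bases with Cct6a, a chaperonin subunit gene on the opposite strand, and whether reads were counted by strand is not given in the sources used here. Cct6a ranged from 273 to 287 CPM in fetal WT, from 261 to 286 in fetal KO and from 225 to 234 at week 70. It was not called between genotypes (0.03, adjusted p = 0.721, edgeR) and was lower with age (-0.36, adjusted p = 0.00246, edgeR). Its part in the Psph counts was not tested.

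Both serine hydroxymethyltransferases were lower in KO fetal brain and lower still at week 70. Shmt1, the cytosolic enzyme, stood at 12.7, 13.0 and 12.2 CPM in fetal WT, 5.64, 6.67 and 8.05 in fetal KO, and 3.03 and 2.41 at week 70, the last from 46 and 35 counts. The 3 groups did not overlap. It fell by 0.85 between genotypes (SE 0.146, adjusted p = 0.000473, edgeR) and had a log2 fold change of -1.42 between ages (SE 0.265, adjusted p = 0.000575, edgeR). Shmt1 shares 184 of its 3883 exon bases with Smcr8, on the opposite strand. Smcr8 was also lower in KO than in WT fetal brain (-0.88, adjusted p = 8.17e-06, edgeR) but rose with age (1.04, adjusted p = 9.37e-06, edgeR); its part in the Shmt1 counts was not tested.

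Shmt2, the mitochondrial enzyme, stood at 62.5, 55.1 and 51.4 CPM in fetal WT, 30.4, 30.1 and 28.8 in fetal KO, and 27.9 and 24.0 at week 70. The genotype difference was -0.88 (SE 0.078, adjusted p = 3.56e-06, edgeR), and the WT libraries lay far above all others. It was -0.41 after correction for length and GC content (adjusted p = 0.00104, edgeR). The age difference within KO was small, at -0.30 (SE 0.110, adjusted p = 0.0277, edgeR). That call was lost without KO day 15 replicate 1 (adjusted p = 0.087), without KO day 15 replicate 2 (adjusted p = 0.1) and without week 70 replicate 2 (adjusted p = 0.161), each by edgeR. It was also lost with all 8 libraries in 1 fit, while upper-quartile scaling made it -0.55, where the median of all genes was -0.44, and the length and GC correction -1.32 (adjusted p = 1.34e-06, edgeR). Against WT day 15, week 70 KO was lower with log2 fold changes of -2.22 for Shmt1 (SE 0.197, adjusted p = 3.19e-05, edgeR) and -1.13 for Shmt2 (SE 0.119, adjusted p = 7.94e-05, edgeR). The latter was -1.74 with length and GC corrected and the replicate block (adjusted p = 2.02e-05, edgeR).

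Of the folate enzymes downstream, Mthfd1 and Mthfd1l fell in KO fetal brain and rose with age, and Mthfd2 did not follow them. Mthfd1, the cytosolic trifunctional enzyme, stood at 48.0, 45.4 and 37.7 CPM in fetal WT, 23.1, 23.3 and 21.2 in fetal KO, and 44.9 and 53.1 at week 70. It was lower in KO by a log2 fold change of -0.92 (SE 0.096, adjusted p = 1.34e-05, edgeR) and higher at week 70 than in KO fetal brain by 1.02 (SE 0.109, adjusted p = 8.39e-06, edgeR). The week 70 KO and day 15 WT libraries overlapped, and their difference of 0.15 was not called (SE 0.125, adjusted p = 0.303, edgeR). With length and GC corrected, the genotype difference was -0.53 (adjusted p = 0.000707, edgeR), and the age difference was no longer called (0.21, adjusted p = 0.0689, edgeR). The difference of week 70 KO from WT day 15 turned to -0.26 (adjusted p = 0.0981, edgeR), and with the replicate block as well it was called as lower (-0.36, adjusted p = 0.0367, edgeR). Mthfd1 and Shmt2 share 37 and 32 exon bases with the opposite-strand genes Gm47525 and Ndufa4l2, which reached at most 0.249 and 4.77 CPM in any library.

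Mthfd1l makes formate from 10-formyltetrahydrofolate in mitochondria. It stood at 11.2, 8.53 and 11.0 CPM in fetal WT, 4.06, 5.00 and 3.30 in fetal KO, and 15.2 and 19.6 at week 70. Of the 9 enzymes it had the largest fitted genotype difference, -1.27 (SE 0.181, adjusted p = 0.000131, edgeR), or 2.41-fold lower. Its rise with age was 1.98 (SE 0.212, adjusted p = 8.49e-06, edgeR), and 1.25 after the length and GC correction. Week 70 KO was above WT day 15 by 0.75 (SE 0.188, adjusted p = 0.00757, edgeR), a call lost after the length and GC correction (0.37, adjusted p = 0.106, edgeR).

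Mthfd2, the mitochondrial dehydrogenase and cyclohydrolase upstream of Mthfd1l, stood at 16.8, 17.5 and 18.4 CPM in fetal WT and 18.0, 15.8 and 17.8 in fetal KO. These groups overlapped, and the difference of 0.01 was not called (SE 0.096, adjusted p = 0.916, edgeR). Its sign turned under several of the alternative settings. At week 70 it measured 10.1 and 11.4 CPM, below every fetal library. The age difference was -0.78 (SE 0.147, adjusted p = 0.000594, edgeR), and that of week 70 KO against WT day 15 was -0.72 (SE 0.138, adjusted p = 0.00210, edgeR). With length and GC corrected these were -1.23 and -1.09.

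Tyms stood at 21.8, 23.4 and 18.9 CPM in fetal WT, 23.6, 23.5 and 25.5 in fetal KO, and 2.17 and 1.72 at week 70, the last from 33 and 25 counts. The fetal genotypes lay next to each other without overlap, and the difference of 0.22 was not called (SE 0.099, adjusted p = 0.0790, edgeR). It was called under upper-quartile scaling (0.39, adjusted p = 0.00539, edgeR), which moved the median of all genes from 0.03 to 0.20. It was also called with length and GC corrected (0.36, adjusted p = 0.00847, edgeR) and without WT replicate 2 (0.28, adjusted p = 0.0455, edgeR). With age Tyms had a log2 fold change of -3.73 (SE 0.182, adjusted p = 1.56e-08, edgeR), or 13.2-fold lower. Its pseudogene Tyms-ps held 24 to 52 counts in the fetal libraries and 0 in both week 70 libraries. Summing both rows gave 0.19 between genotypes (adjusted p = 0.101, edgeR) and -3.83 between ages. Week 70 KO against WT day 15 gave a log2 fold change of -3.46 (SE 0.204, adjusted p = 3.49e-06, edgeR).

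The promoters of Phgdh and Tyms are shown because these genes had the largest rise and the largest fall with age. Each sequence is the 250 bases before the RefSeq start on GRCm38.p6, read 5′ to 3′ on the gene's strand. Capitals mark matches to CCAAT (the CCAAT box), to GGGCGG (the GC box) and to CACGTG (the E-box) on either strand. Phgdh is at chr3:98339970-98340219, and Tyms at chr5:30073626-30073875, both on the minus strand.
Phgdh: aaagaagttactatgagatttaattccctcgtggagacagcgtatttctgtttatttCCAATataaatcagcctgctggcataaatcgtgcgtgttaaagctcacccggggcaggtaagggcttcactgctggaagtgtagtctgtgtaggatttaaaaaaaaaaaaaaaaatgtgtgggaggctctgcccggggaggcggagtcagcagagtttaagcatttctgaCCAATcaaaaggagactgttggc
Tyms: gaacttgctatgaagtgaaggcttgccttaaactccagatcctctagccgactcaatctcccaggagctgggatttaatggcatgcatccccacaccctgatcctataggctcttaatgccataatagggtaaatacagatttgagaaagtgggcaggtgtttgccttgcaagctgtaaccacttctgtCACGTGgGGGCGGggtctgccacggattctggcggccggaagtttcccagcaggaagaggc
Phgdh held CCAAT 23 and 193 bases before the start. Tyms held the E-box CACGTG 61 bases and the GC box GGGCGG 54 bases before it. The 9 genes have 10 promoters in the table, since Psat1 has a pair of starts. CCAAT occurred in 6 of the 10 and in 33.8% of all 32851 promoters, GGGCGG in 6 of 10 and in 32.7%, and CACGTG in 1 of 10 and in 6.0%. The core TGATGNAA of the composite element bound by Atf4 was in 0 of the 10 promoters and in 3.5% of all. The E2F motifs TTTCCCGC and TTTGGCGC were in 0 of the 10 and in 0.9% and 0.4%. The searches covered both strands. GGGCGG matches overlap each other in the Shmt1 promoter, 27 and 32 bases before its start, and no other matches in these promoters overlap. A match is a description of the sequence only.

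Ratios within a library do not depend on how libraries are scaled. They keep any effect of length or GC content that differs between libraries, for which they were not corrected. That correction changed the fitted genotype difference from -0.88 to -0.41 for Shmt2 and from -0.85 to -0.75 for Shmt1. Between ages it changed that of Shmt2 from -0.30 to -1.32. The age difference of Shmt1, fitted as -1.42, was at its lowest -1.86 over all alternatives. In the corrected fits this pair thus moved apart less with age than the uncorrected ratio shows. The ratios were those of mitochondrial to cytosolic enzymes and of successive mitochondrial ones, per exon length. Per length, Shmt2 exceeded Shmt1 5.26-fold to 6.15-fold in fetal WT, 4.45-fold to 6.70-fold in fetal KO and 11.4-fold to 12.3-fold at week 70. The fetal genotypes overlapped, with a mean log2 ratio of 2.47 ± 0.130 for WT against 2.46 ± 0.295 for KO (SD, n = 3 in both; exact two-sided permutation p = 1), and both week 70 libraries lay above all 6 fetal ones. Mthfd1l to Mthfd1 stood at a log2 ratio of -2.09 ± 0.313 in fetal WT, -2.46 ± 0.230 in fetal KO (SD, n = 3 each) and -1.49 ± 0.089 at week 70 (SD, n = 2). Its fetal groups overlapped as well (exact permutation p = 0.2).

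Mthfd2 to Mthfd1l separated all 3 groups. The ratio per length was 1.90, 2.60 and 2.13 in fetal WT, 5.61, 4.01 and 6.82 in fetal KO, and 0.849 and 0.737 at week 70. The mean log2 ratio was 1.29 higher in KO than in WT fetal brain, with an exact two-sided permutation p of 0.1, the smallest that 3 against 3 libraries allow. Its difference between week 70 and KO fetal brain was -2.76, with an exact p of 0.2, the smallest that 3 against 2 allow. No ratio could pass 0.05 in this design, and over the 9 tests the adjusted p of the smallest was 0.225 (exact permutation). Mthfd1l was thus high relative to Mthfd2 at week 70 and low in KO fetal brain, in every library of those groups.

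**Figure D4:**
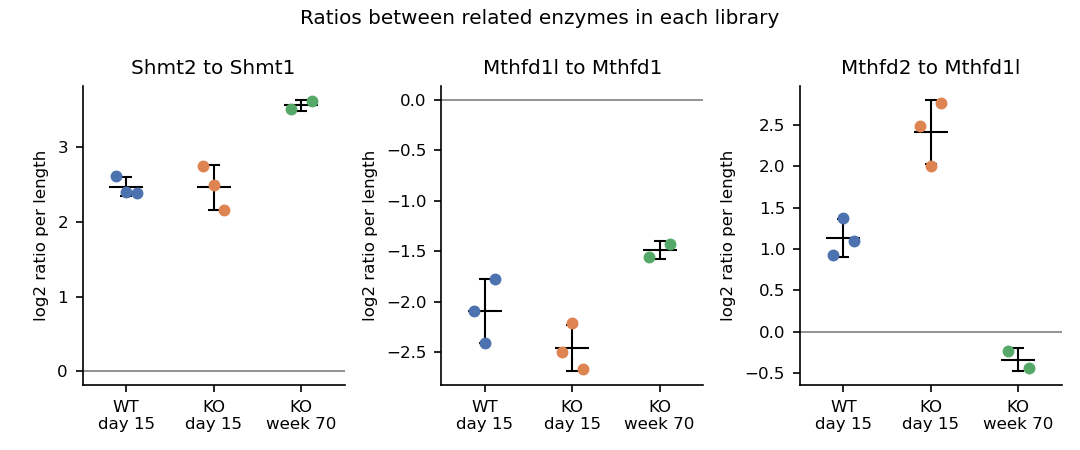
Log2 ratio per exon length of Shmt2 to Shmt1, Mthfd1l to Mthfd1 and Mthfd2 to Mthfd1l (vertical axis) in each library of the WT day 15, KO day 15 and KO week 70 groups. The points of Mthfd2 to Mthfd1l do not overlap between any groups, from 0.93 to 1.38 in fetal WT, 2.00 to 2.77 in fetal KO and -0.44 to -0.24 at week 70.

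The genes around these enzymes were mixed in KO fetal brain, and most list medians moved with the scaling. The counts below are to be read against 62.6% of all genes called, 30.1% as higher and 32.5% as lower. In the glycine cleavage system, which breaks glycine down to a one-carbon unit, 3 of 4 genes rose and 1 fell (median 0.41). With length and GC corrected 1 rose and 1 fell (median -0.09). The one that fell is Gldc, the glycine decarboxylase, at 30.2, 30.4 and 27.3 CPM in WT and 8.54, 5.61 and 5.10 in KO (log2 fold change -2.16, SE 0.162, adjusted p = 1.10e-06, edgeR). The aminomethyltransferase Amt rose by 0.59. Of 14 genes of folate uptake and the folate cycle tested, 6 rose and 7 fell, with a median of -0.14. Upper-quartile scaling left 6 higher and 3 lower (median 0.03), and the length and GC correction 5 higher and 1 lower (median 0.16). Aldh1l1, the cytosolic formyltetrahydrofolate dehydrogenase, fell from 38.1 ± 4.12 to 12.7 ± 1.15 CPM (SD, n = 3 each). Sardh, sarcosine dehydrogenase, had a log2 fold change of -1.33, and with length and GC corrected one of -0.62 that was not called (adjusted p = 0.0520, edgeR). Mthfd2l, the isozyme of Mthfd2, rose from 39.5 ± 0.989 to 60.8 ± 3.85 CPM (SD, n = 3 each), by 0.67 (SE 0.069, adjusted p = 1.27e-05, edgeR), while Mthfd2 was not called.

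Of 11 genes of serine transport and use, 2 rose and 5 fell between fetal genotypes (median -0.16). The median was 0.01 under upper-quartile scaling and 0.11 with length and GC corrected, each with 2 higher and 4 lower. The neutral amino acid transporter Slc1a4 fell by 1.24 on the log2 scale, and Srr, the serine racemase, rose by 0.60. Of 10 tested genes of the methionine cycle and transsulfuration, 2 rose, among them Mat2a, an S-adenosylmethionine synthetase (0.57), and 5 fell, among them Cbs, cystathionine beta-synthase (-0.79, and -0.37 with length and GC corrected, no longer called). The median of that list was -0.21. Upper-quartile scaling gave 3 higher and 3 lower (median -0.04), and the length and GC correction 3 higher and 1 lower (median 0.07). Purine synthesis had 2 of 11 higher and 5 lower (median -0.14), 3 and 5 under upper-quartile scaling (median 0.03), and 0 and 6 with length and GC corrected (median -0.25). Atic and Gart, both users of 10-formyltetrahydrofolate, fell by 1.12 and 1.11 on the log2 scale. In thymidine and deoxynucleotide supply, beside Tyms, 3 of 9 rose and 5 fell (median -0.31). Upper-quartile scaling gave 3 and 3 (median -0.14), and the length and GC correction 3 and 4 (median -0.02). Cad, the first enzymes of pyrimidine synthesis, had a log2 fold change of -1.81, which was -0.91 with length and GC corrected (adjusted p = 1.58e-06, edgeR). Rrm2, a ribonucleotide reductase subunit, was at -1.18.

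Atf4 is a transcription factor of the amino acid response and a known regulator of serine synthesis genes. It rose slightly in KO fetal brain, from 98.1 ± 1.85 to 113 ± 3.01 CPM (SD, n = 3 each), by 0.24 (adjusted p = 0.00236, edgeR), a call lost without the filter (adjusted p = 0.0727) and with all 8 libraries in 1 fit (adjusted p = 0.0820), both by edgeR. Of the 15 genes of Atf4 and its response targets, 3 rose and 8 fell, with a median of -0.57 that was -0.32 with length and GC corrected. Slc7a5, a large neutral amino acid transporter, had the largest log2 fold change of the list at -2.52, and Sesn2, a leucine sensor, was at -1.27, and at -0.68 with length and GC corrected (adjusted p = 0.0140, edgeR).

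With age, within KO, the lists moved apart, among genes of which 82.0% were called, 37.6% as higher and 44.4% as lower. Of 15 Atf4 and response genes 13 rose and 0 fell (median 1.90, beside -0.19 over all genes); with length and GC corrected 11 rose and 0 fell (median 1.12). Cebpb rose by 4.45 (3.23 with length and GC corrected) and Nupr1 by 2.78, both transcriptional regulators of stress responses, and Atf4 itself by 0.76, which was 0.04 and not called with length and GC corrected. Of 10 tested genes of serine transport 8 rose and 1 fell, led by Slc7a10, an exchanger of small neutral amino acids including D-serine, with 2.74 (2.00 corrected in the same way), and Serinc3 with 2.11. The median of that list was 1.05, and 0.42 corrected, with 6 higher and 1 lower. Glycine cleavage had 3 of 4 higher: Gldc was at 54.7 and 62.3 CPM at week 70, up by 3.09 from fetal KO (SE 0.179, adjusted p = 5.91e-08, edgeR), or by 2.04 with length and GC corrected and the replicate block, and Gcsh rose by 1.43. Methionine cycle genes had 6 of 10 higher and 2 lower, with Cbs up by 3.57 (2.94 with length and GC corrected) and Ahcyl2 by 2.69. Purine synthesis had 6 of 11 higher and 2 lower, with Impdh2 up by 1.60 and Prps1 by 1.32 (list median 0.59). With length and GC corrected the list had 3 higher and 2 lower (median -0.02), and Impdh2 was up by 0.97; upper-quartile scaling gave 6 higher and 4 lower (median 0.34).

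The folate list had 3 of 16 higher and 7 lower with age, and its dehydrogenases split. Cytosolic Aldh1l1 rose by 3.08 (2.13 with length and GC corrected), and mitochondrial Aldh1l2 had a log2 fold change of -3.12. Mthfd2l fell (-2.03), as Mthfd2 and Tyms did. Thymidine and deoxynucleotide genes had 1 of 9 higher and 7 lower. The salvage kinase Tk1 had a log2 fold change of -4.65 (-5.43 with length and GC corrected), from 14.2, 12.2 and 14.2 CPM to 0.725 and 0.413, and Rrm2 one of -4.19. Of 16 proliferation genes all 16 fell; Mki67 went from 126, 125 and 142 CPM to 1.32 and 0.345, and Aurkb, a mitotic kinase, from 183 to 232 counts to 2 and 0.

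In week 70 KO against day 15 WT, the genes Nupr1 and Cebpb, Slc7a10, Gcsh and Gldc, Sardh and Aldh1l1, Cbs and Ahcyl2, Impdh2 and Prps1 were higher. Slc1a5, Aldh1l2, Mthfd2l, Rrm2 and Tk1 were lower, and so was Mki67. Among them Slc1a5, a transporter of neutral amino acids including serine, stood at 17.7, 14.8 and 16.1 CPM in fetal WT and 2.90 and 3.65 at week 70. Atf4 was at 231 and 178 CPM at week 70, above 96.0 to 99.5 in fetal WT. This comparison shares its libraries with the others.

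**Figure D5:**
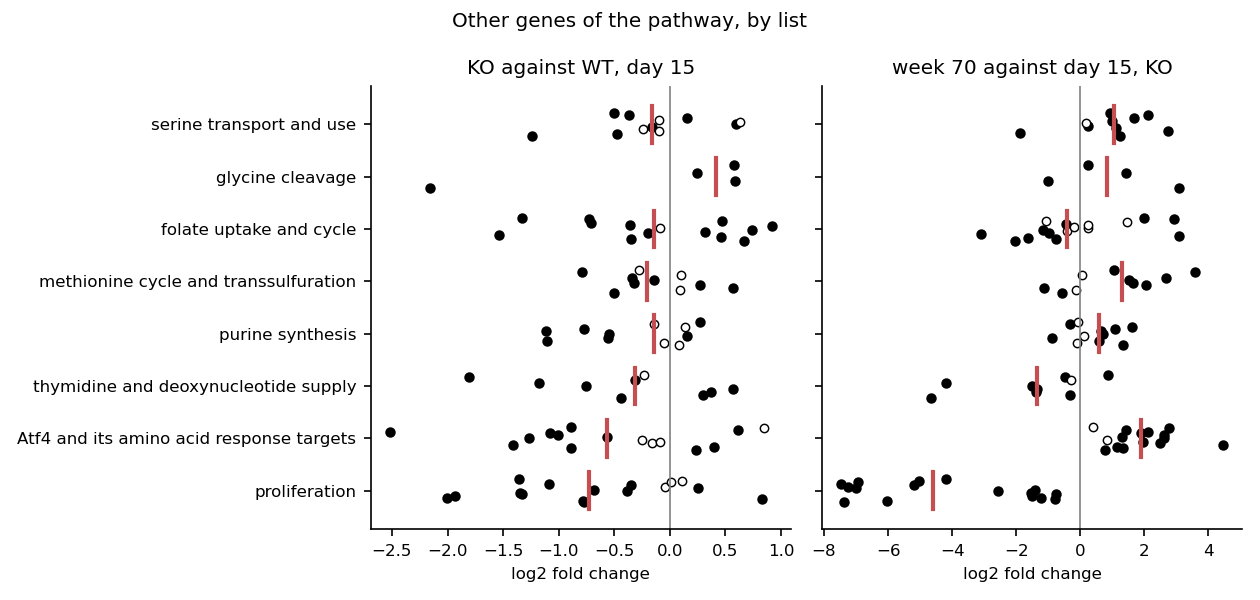
Log2 fold change (horizontal axis, a different range in each panel) of every tested gene in each pathway list, KO against WT at day 15 in one panel and week 70 against day 15 within KO in the other; filled points are called genes and red bars are list medians. Between ages the proliferation list has its median at -4.61 and the Atf4 list at 1.90.

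Markers of cell types also differed between the groups. The same shares of all genes apply, 30.1% higher and 32.5% lower between genotypes and 37.6% and 44.4% between ages. Between fetal genotypes, 8 of 10 radial glia and progenitor markers fell and 2 rose (summed level 1749 to 1847 CPM in WT, 1464 to 1569 in KO). Astrocyte markers had 6 of 10 lower and 1 higher (594 to 673 and 290 to 308 CPM), neuron markers 6 of 10 lower and 2 higher (5646 to 6213 and 4643 to 4734 CPM). All 6 tested endothelial markers were lower (171 to 235 and 51.2 to 66.3 CPM), and all 6 erythroid markers higher (953 to 1234 and 3564 to 4375 CPM). With length and GC corrected, radial glia markers had 6 lower and 2 higher, astrocyte markers 6 and 1, and neuron markers 5 and 1. Their medians went from -0.57 to -0.33, from -0.89 to -0.40 and from -0.54 to -0.13. All 6 endothelial and all 6 erythroid markers kept their calls. Proliferation genes had 11 of 16 lower and 2 higher (970 to 1178 and 665 to 679 CPM), with Mki67 at -0.77 and Mcm2 and Mcm3, helicase subunits of DNA replication, at -2.01 and -1.93. Among these fetal libraries Tyms was not called, beside 11 of 16 proliferation genes that fell. With age, 10 of 10 astrocyte markers rose (from sums of 290 to 308 CPM up to 8618 to 9352 CPM), as did 9 of 9 oligodendrocyte markers (from 98.8 to 109 CPM up to 13722 to 13840 CPM). Radial glia markers had 7 of 10 lower, and summed proliferation genes fell to 111 to 113 CPM. No marker of these lists was at 0 in all libraries of a group. A few reads of a marker suffice for that, so it does not establish that a cell type was present. The part of cell composition in the enzymes' differences was not tested.

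The gene nearest to each enzyme over the 8 libraries was taken by the distance between log2 CPM values centred per gene, among 12809 genes. Mthfd2 had the closest neighbour, Ankrd42 at a distance of 0.096. Psph was nearest to Decr2 (0.132), Tyms to Cenpa, a centromere histone (0.137), Psat1 to Gabbr1, a GABA-B receptor subunit (0.154), Mthfd1 to Rpa1, a single-strand DNA binding protein (0.159), and Shmt2 to Akap13 (0.181). The neighbours of Mthfd1l (Chst11, 0.328), Phgdh (Lingo3, 0.364) and Shmt1 (Ehmt1, 0.408) were farther. The closest pair within the enzymes was Psat1 and Mthfd1l at 0.838. Phgdh and Psat1 were 2.45 apart by the row of Phgdh alone, and 0.741 apart with its pseudogenes' counts added, which made them the closest pair. The neighbour of Phgdh above is also that of its row alone. The 8 libraries form only 3 groups, so genes with alike group means come out near each other.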

How the data were processed

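The deposited file holds raw counts of reads, 1 row for each Ensembl gene and 1 column for each library, per the file headers. Poly-A RNA was sequenced from random-primed cDNA, per the labels' protocols. The submitters' processing notes name FastQC, cutadapt, Trimmomatic, HISAT2, featureCounts and edgeR and the builds GRCm38 and GRCm39, with no role or order; annotation, strand and the handling of reads matching several genes are not given in the sources used here. The members and gene lists were chosen with earlier results of these data known.

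Groups followed the sample titles. edgeR 4.0.16 (R 4.3.3) was fitted on the 2 groups compared: filterByExpr, TMM, two-sided quasi-likelihood F-test, Benjamini-Hochberg over all genes tested. Ratios added 0.5 counts and used exact two-sided permutation tests (SciPy 1.17.1). Exon lengths, GC content and pseudogenes came from GENCODE release M 21 on GRCm38, which matched 33365 identifiers (97.3%). Pseudogenes were aligned with minimap2 2.31 (50% aligned, 85% identity). Promoters came from RefSeq on GRCm38.p6. Of the pathway lists the 2 genes with the largest called change, a mean of at least 50 counts and no overlap were named, plus Atf4, Mthfd2l, Gldc, Aldh1l1 and Mki67 and 1 gene that is not reported here; Smcr8, Cct6a, Gm7901, Gm12611 and Tyms-ps were named for their overlap or likeness to a member, and Mcm2 and Mcm3 by the rule. Alternatives were RLE and upper-quartile scaling, other filters, DESeq2 1.42.0, all 8 libraries in 1 fit, a fold threshold (glmTreat), a replicate block, correction for length and GC (mgcv 1.9.3), each library left out, and, chosen after seeing the data, summing members with their pseudogenes. The fit was tested on simulated data. No pair of replicates agreed within sampling noise.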

Additional observations from a re-analysis of the deposited data

How the results depend on the processing

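The number of enzymes called ranged from 6 to 8 between genotypes, 7 to 9 between ages and 7 to 8 for week 70 KO against WT day 15 over all alternatives, with 7, 9 and 8 as reported. With 1 library left out it ranged from 7 to 8, 8 to 9 and 8 to 8. Leaving out 1 of the 2 week 70 libraries assumes that the other varies like the group it is compared with. Of all genes tested, leaving out 1 library gave 10998 to 11365, 15534 to 16923 and 14105 to 15366 calls. Requiring a log2 fold of at least 0.5 left 5669 of 11993 calls between genotypes.

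Deviations of same-numbered WT and KO fetal libraries from their group means correlated at -0.19, -0.27 and -0.28. Those of differently numbered libraries correlated at 0.07 to 0.17. Deviations from a group's own mean are tied to each other, so these values cannot settle whether the numbers pair the samples. With the replicate block 7, 9 and 8 enzymes were called, as without it, and 11184, 14876 and 13244 genes.

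Upper-quartile scaling moved the median of all genes from 0.03 to 0.20 between genotypes and the share of calls that were higher from 48.1% to 60.8%; between ages the median went from -0.19 to -0.44 and the share from 45.8% to 39.4%. Mthfd2 turned sign between genotypes with no filter (-0.079), with all 8 libraries in 1 fit (-0.026) and with WT replicate 1 (-0.041), KO replicate 1 (-0.029) or KO replicate 3 (-0.012) left out, and was at most 0.06 with another left out. Mthfd1 turned sign for week 70 KO against WT day 15 with length and GC corrected (-0.26, adjusted p = 0.0981, edgeR) and, with the replicate block added, was called lower (-0.36, adjusted p = 0.0367, edgeR). The causes were not tested. Of the enzymes' values under alternatives, 142 of 153, 136 of 144 and 139 of 144 kept direction and side of the threshold. At week 70, 25 to 46 counts of Tyms and Shmt1 limit precision.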
